A study of Rattus norvegicus with 8 samples.

Results

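Weak glucocorticoid receptor (GR) hotspots that recurred in both groups were taken from GR ChIP-seq of rat hippocampus. A member was a peak of the NSC list that lay outside the merged list of the strongest peaks and shared at least 1 bp with a stressed peak that also lay outside it. Of the 19506 NSC peaks, 3875 met this rule (19.9%, 95% Wilson interval 19.3% to 20.4%), and each was paired with the overlapping stressed peak of highest maximum tag density. Both groups were male Sprague-Dawley rats of 9 weeks that had been adrenalectomised, so that the animals had no adrenal corticosterone of their own. For the last 12 hours the animals drank saline without the corticosterone they had been given after surgery. Both groups then received a 30 min corticosterone infusion through a jugular cannula, during which the stressed group was restrained and the nonstressed control (NSC) group stayed in the home cage. Each group had 2 GR ChIP libraries and 2 input libraries, each from pooled hippocampi, and a mixture of GR antibodies was used for the ChIP. The whole hippocampus mixes neurons and glia, so that a weak peak cannot be told apart from a stronger one present in few of the cells.

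GR is a nuclear receptor that is held inactive in the cytoplasm until corticosterone binds it, after which it enters the nucleus and binds DNA at glucocorticoid response elements or their half-sites. In hippocampus, where GR is abundant, it takes part in feedback on the stress axis and in the regulation of genes for metabolism, plasticity and cell structure. Binding depends on open chromatin, and a ChIP-seq experiment returns a range of sites from strong peaks to a large number of weak ones near the limit of calling. A peak caller scores each enriched region against a background, while tag density counts the sequenced fragments that pile up at one position. The lists give a maximum tag density (the authors' signal, normalized to input, on a scale that is not stated) and a z-score from the peak caller for each peak, with both replicates combined. There is thus 1 value per peak and group and no replicate error, the depth behind each value is unknown, and all differences below are given as descriptions without a test. Intervals over peaks cover counting error only.

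Members were chosen by overlap and by tag density, through absence from the merged list in both groups, so the number of members and their low tag density are not findings. Outside the merged list lay 13985 NSC peaks, of which the 3875 members made up 27.7% (95% Wilson interval 27.0% to 28.5%). On the stressed side, 3909 of 17827 weak peaks overlapped a weak NSC peak (21.9%, 95% Wilson interval 21.3% to 22.5%). No weak NSC peak overlapped a stressed peak of the merged list. The rule largely fixes this, since an NSC peak that did so would mostly touch the merged region too. In the merged list, 4333 of 5521 NSC peaks overlapped a stressed peak (78.5%). This share is not a like comparison. A merged region could come from the stressed group alone, so an NSC peak could enter the count through the stressed peak it overlapped. These peaks were also longer, at a median of 532 bp against 351 bp in members, which favours overlap. Many more weak peaks were close to a weak peak of the other group without touching it. With a distance of up to 1 kb allowed, 7275 of the weak NSC peaks (52.0%, 95% Wilson interval 51.2% to 52.8%) and 7760 of the weak stressed peaks (43.5%, 95% Wilson interval 42.8% to 44.3%) had a weak counterpart in the other group.

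NSC tag density of members had a median of 6.56, between a lowest value of 0.119 and a highest of 11.4. Their stressed partners had a median of 6.69, between 0.493 and 9.32. Most members fell in a narrow band, since the 5th and 95th percentiles were 4.11 and 9.33 for NSC values and 4.46 and 8.77 for stressed values. Weak NSC peaks that did not recur had a median of 6.15, with 5th and 95th percentiles of 3.87 and 9.11. Tag density took few distinct values in this range. Members held 220 distinct NSC values and their partners 188 distinct stressed values, and 16.2% of members had 1 of the 5 commonest NSC values, which were 5.70, 6.15, 6.61, 7.07 and 7.52. Many weak peaks were thus tied in tag density.

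The limit of the merged list bounded the members at different heights in the groups. In the NSC list every peak at 11.5 or more was in the merged list, and in the stressed list every peak at 9.37 or more. The 5 members of highest NSC tag density lay just under the NSC limit. They were on chromosome X from 69292763 to 69293316 (NSC tag density 11.4, stressed 9.27), chromosome 13 from 36780776 to 36781459 (11.4 and 8.23), chromosome 15 from 76382865 to 76383378 (11.4 and 7.83), chromosome 7 from 94515251 to 94515786 (11.4 and 9.27) and chromosome 8 from 85513315 to 85513883 (11.4 and 8.48). All coordinates are those of rn5, and genes near the peaks were not analysed here. The NSC peaks just above the limit were on chromosome 1 from 188384977 to 188385447 and chromosome 17 from 13891922 to 13892258, both with a tag density of 11.5. They were followed by peaks on chromosome 16 from 21986180 to 21986595, chromosome 2 from 67697933 to 67698446 and chromosome 19 from 68362452 to 68362812, also at 11.5. The peaks on both sides of the limit differed widely in z-score, which was 13.0 at the member on chromosome X and 90.3 at that on chromosome 13, and 9.70 on chromosome 19 and 84.5 on chromosome 2 above the limit. A further 465 NSC peaks had a tag density below the limit but lay in a merged region, and these are not members.

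Members, like weak peaks that did not recur, had a high z-score for their tag density. Members scored 37.5 at the NSC median, between 9.08 and 112, and 41.0 for their stressed partners, between 9.66 and 118. NSC peaks in the merged list had a median z-score of 15.5 and stressed peaks in it 17.8, although their median tag density was 18.2 in both groups. Weak NSC peaks that did not recur had a median z-score of 31.4. A z-score of 20 or more was found in 85.2% of members (95% Wilson interval 84.0% to 86.2%), in 74.0% of weak NSC peaks that did not recur (73.2% to 74.9%) and in 5.71% of the 1997 NSC peaks with a tag density of 14 to 20 (95% Wilson interval 4.77% to 6.81%). Stronger NSC peaks scored higher, with median z-scores of 19.1 at tag densities of 20 to 30 and 44.0 at 40 to 80. The class of 14 to 20 thus does not stand for all strong peaks. Of the members, 3088 (79.7%) had a z-score of 20 or more in both groups. The lowest z-score in each list was 9.01 for NSC and 9.65 for stressed peaks, so a peak with a lower score was not in the lists at any tag density.

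Across the NSC list z-score did not rise steadily with tag density. Its median was 30.5 at a tag density of 4 to 6, 36.5 at 6 to 8 and 38.7 at 8 to 10. It was then 12.3 at 10 to 12, 10.6 at 12 to 14, 13.4 at 16 to 20, 19.1 at 20 to 30 and 44.0 at 40 to 80. Within the NSC class of 10 to 12, the 95 members had a median z-score of 44.2. The stressed list gave 29.2, 35.9 and 41.0 for the same lower classes. Its median was 24.8 at 10 to 12, 11.4 at 12 to 14 and 45.6 at 40 to 80. The peaks formed a steep cloud at low tag density and a separate diagonal band at higher tag density, and members lay almost entirely in the first. The z-score divided by tag density had a median of 5.93 in members (5th to 95th percentile 2.25 to 11.5), against 0.838 in the 2301 NSC peaks with a tag density of 20 or more (0.537 to 1.26). A value under 2, a limit chosen after the values were seen, was found in 130 members (3.35%), in 924 weak NSC peaks that did not recur (9.14%) and in 96.5% of the NSC peaks at tag densities from 20 upwards. Members had low tag density by the rule and the compared peaks high tag density by choice, so the divisor itself differed. The lowest NSC z-score was 9.01, which also keeps the ratio of weak peaks from falling far. The contrast with strong peaks, and the place of members in the steep cloud, thus follow in part from the rule. The steep cloud did not end at the limit of the merged list in the stressed group. The 873 stressed peaks between that limit and a tag density of 11 had a median z-score of 40.7, as did the 2051 weak stressed peaks from 8 upwards. What separates the clouds was not tested.

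**Figure D1:**
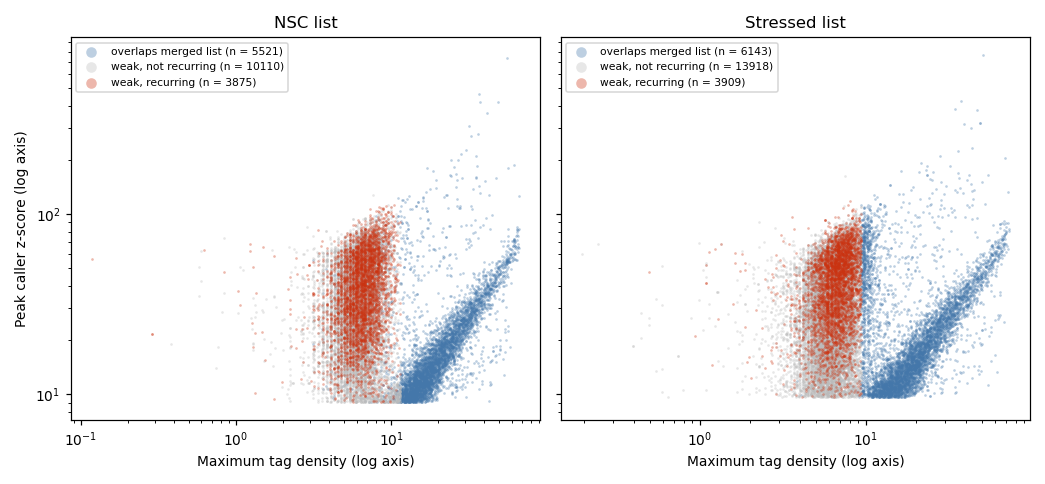
Peak caller z-score against maximum tag density for every peak of the NSC list and the stressed list, 1 point per peak, both axes on a log scale. Recurring weak peaks, with a median z-score of 37.5 in the NSC list, fill the steep cloud at low tag density, and most peaks of the merged list lie on the separate diagonal band.

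Ranked by the lower of the NSC and stressed z-scores, the first members were on chromosome X from 120590975 to 120591650 and from 120591670 to 120592701. These neighbouring peaks shared 1 NSC tag density of 10.2 and 1 NSC z-score of 98.2, and both overlapped 1 stressed peak with a tag density of 9.17 and a z-score of 91.0. Next was the peak on chromosome 13 from 36780776 to 36781459, one of the strongest members, with z-scores of 90.3 and 105. A member on chromosome 17 from 69455362 to 69456070 had an NSC z-score of 84.8 and a stressed z-score of 99.2 at tag densities of 8.22 and 7.83. A member on chromosome 14 from 91332147 to 91332575 had z-scores of 94.3 and 84.3 at tag densities of 8.20 and 9.02. At these members the z-score was high in both groups, with the NSC value above the stressed one on chromosomes X and 14 and below it on chromosomes 13 and 17.

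Over the 3875 pairs, log2 NSC and log2 stressed tag densities had a Pearson's r of 0.19 (95% interval 0.16 to 0.22). For the z-score r was 0.47 (0.44 to 0.49) on the log2 scale, and for length it was 0.0074 (-0.024 to 0.039). Over the 4333 NSC peaks of the merged list that overlapped a stressed peak, r was 0.86 for tag density and 0.85 for z-score. A low r for tag density follows in part from the rule, which limits its range in members, and it does not show how far tag density is shared. The members' log2 tag densities had SDs of 0.40 (NSC) and 0.34 (stressed), against 0.73 and 0.69 in the merged list. For the z-score the SDs were 0.74 and 0.70 in members, lower than the 0.84 and 0.89 in the merged list. The z-score r of members and that of the merged list are thus not a like comparison. These correlations run across peaks called in the same combined libraries, which are not independent replicates.

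Over the members, the log2 ratio (stressed over NSC) of tag density was 0.020 at its median, with an SD of 0.47 and quartiles of -0.24 and 0.29. Stressed tag density was the higher in 2019 of 3875 pairs (52.1%, 95% Wilson interval 50.5% to 53.7%). Dividing the NSC and stressed values of the pairs by their own medians moved the median log2 ratio to -0.0083. Such scaling brings the median ratio near 0 by construction, so it cannot show a direction. No direction is given, since replicates are combined and no test was made. The limit of the merged list was lower in the stressed group, and 197 members (5.08%) had an NSC tag density above the highest weak stressed value, which places them below 0 by the rule. The median over pairs in the merged list was 0.11, with a spread (SD) of 0.38. By NSC z-score, the median ratio was 0.12 in the 775 members with the lowest NSC z-score and -0.098 in the 775 with the highest, whose NSC tag densities had medians of 6.13 and 7.28. The NSC tag density is the denominator of the ratio, so that sorting by a score of the NSC group lowers the ratio where the NSC value is high. Stressed tag density had a median of 6.79 in both of these classes, while the stressed z-score had medians of 24.4 and 52.3.

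Stressed partners exceeded their member by 2-fold or more in tag density in 74 cases (1.91%) and fell below it by 2-fold or more in 53 (1.37%). Over all 8208 NSC peaks with an overlapping stressed peak, members included, these shares were 1.82% and 0.865%. Tag density chose the members and its limit was lower in the stressed group, so nothing is read from these shares. With 1 tag density limit for both groups, 74 members were higher and 44 lower. Of the 74 members that were higher, 65 had an NSC tag density under 4. Of the 53 that were lower, 40 had a stressed tag density under 4. Members reached at most 11.4 (NSC) and their partners 9.32 (stressed), so a 2-fold difference needs a low value on the lower side. The many low values in these pairs thus follow in part from the rule. Values under 4 were rare among all members, at 140 NSC and 114 stressed values, with 23 members low in both.

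The ratio furthest above 0 was at a member on chromosome 17 from 85039509 to 85039775, where the NSC peak reached 0.119 and the stressed peak 3.52. The NSC z-score there was 56.1 and the stressed z-score 31.2, and so the score was higher in the group with the lower tag density. On chromosome 20, members from 57460069 to 57460090 and from 57460118 to 57460320 both carried an NSC tag density of 0.286 and both overlapped 1 stressed peak of 6.15. Here the NSC z-score was 21.6 and the stressed z-score 54.3, and thus both measures were higher in the stressed group. The ratio furthest below 0, on chromosome 9 from 119594635 to 119595004, came from an NSC peak of 5.46 and a stressed peak of 0.493, with z-scores of 75.2 and 47.6. A member on chromosome 14 from 110524377 to 110524702 went from 8.68 (NSC) to 1.24 (stressed), with z-scores of 79.7 and 64.0. The peak pair on chromosome 6 that starts at 156868426 and ends at 156868705 in the NSC list went from 8.22 to 1.19, with z-scores of 19.1 and 14.6. At the 3 members furthest below 0 both measures were lower in the stressed group. None of these ratios has a replicate check.

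**Figure D2:**
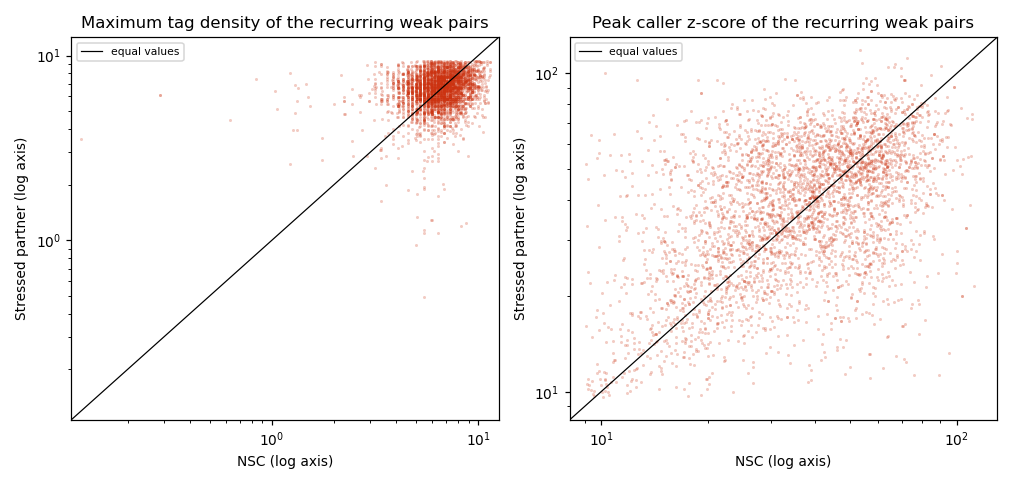
Maximum tag density and peak caller z-score of each recurring weak pair, NSC against the overlapping stressed partner, 1 point per pair (n = 3875), log axes, with a line at equal values. Tag density forms a compact cloud cut off at 9.32 in the stressed group (r of 0.19 on the log2 scale), while z-score spreads along the line (r of 0.47).

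Among the weak peaks, those that were higher, scored higher or were longer recurred more often. Weak peaks were split into 5 classes at the quintiles of each measure. In the class of lowest NSC tag density, 20.8% recurred (95% Wilson interval 19.4% to 22.3%), and in the class of highest, 34.4% (32.6% to 36.2%). By z-score the shares were 16.8% (15.5% to 18.2%) in the lowest class and 34.6% (32.9% to 36.4%) in the highest. By length they were 20.7% (19.5% to 21.9%) among peaks of 252 bp or less and 42.1% (40.3% to 44.0%) among those of 444 bp or more. Among weak stressed peaks the share rose from 14.5% to 29.0% by tag density and from 9.90% to 32.2% by z-score. By length it was 15.7% in the shortest class, 15.4% in the next and 34.9% in the longest. A longer peak has more positions at which it can touch another, so a rise with length follows in part from the rule. With peaks split by length, the share that recurred was higher in the highest of 3 z-score classes than in the lowest. Among weak NSC peaks of 372 bp or more it was 29.6% (95% Wilson interval 26.9% to 32.6%) at low z-score and 42.9% (40.7% to 45.0%) at high z-score. Among those of 258 to 371 bp it was 18.6% (16.8% to 20.5%) and 27.7% (25.4% to 30.1%), and among those of 257 bp or less 18.1% (16.4% to 19.8%) and 22.2% (19.9% to 24.6%). In these shortest peaks the middle z-score class had the highest share, 23.5% (21.5% to 25.7%), so there was no steady rise. The longest length class ran to 1099 bp at low z-score and to 1791 bp at high z-score, so the split does not fully remove length. The rise with tag density was not split by length.

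**Figure D3:**
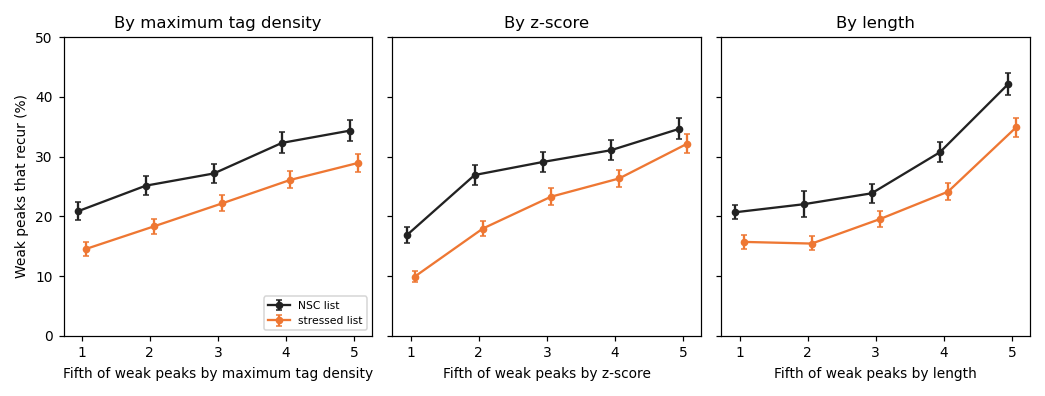
Share of weak peaks that recurred in the other group, in percent, for 5 classes of the weak NSC peaks and of the weak stressed peaks, cut at the quintiles of tag density, z-score or length. Points are shares with 95% Wilson intervals, and the highest share is 42.1% in the class of longest NSC peaks.

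Members were short and their borders differed between groups. Members measured 351 bp at the median, from 1 bp to 1791 bp, and their stressed partners 355 bp, against 289 bp in weak NSC peaks that did not recur and 532 bp in NSC peaks of the merged list. A length of exactly 252 bp was the commonest in both lists, and 317 members (8.18%) had it, as did 11.8% of weak NSC peaks that did not recur and 1.58% of NSC peaks in the merged list. The shared stretch had a median of 213 bp, which was 63.0% of the NSC peak and 62.3% of the stressed peak, and the centres lay a median of 123 bp apart. At least 50% of both peaks was shared with the partner of highest tag density in 1739 members (44.9%), while 112 members (2.89%) shared 10 bp or less. A member lay wholly inside its partner in 733 cases and held it wholly in 693, and 1 pair had the same start and end. The longest member was on chromosome 5 from 111108910 to 111110700, at 1791 bp, with a stressed partner of 147 bp inside it and tag densities of 10.7 and 5.95. A member on chromosome X from 57949487 to 57950960 was 1474 bp long, with a partner of 235 bp and tag densities of 10.96 and 6.34. One on chromosome 3 from 26758974 to 26760220 was 1247 bp long and shared 1109 bp with a partner of 1275 bp, at tag densities of 10.98 and 9.32. Of these long members only the last was also long in the stressed group.

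Some neighbouring peaks carried exactly the same tag density and z-score and were thus not separate measurements. This held for 337 members (8.70%, 95% Wilson interval 7.85% to 9.63%), for 7.39% of weak NSC peaks that did not recur and for 1.36% of NSC peaks in the merged list. A member and the peak of equal values before it were a median of 44 bp apart and at most 498 bp. Counted once for each set of equal neighbours, there were 3762 members. In addition, 329 members shared a stressed partner with another member, so that the 3875 members had 3703 distinct partners, and 211 members overlapped more than 1 weak stressed peak.

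Members were mostly far from the strong sites. The median distance to the nearest merged region was 249 kb, against 242 kb for weak NSC peaks that did not recur, while merged regions lay a median of 62.0 kb from each other. A merged region lay within 10 kb of 334 members (8.62%, 95% Wilson interval 7.78% to 9.54%) and of 7.81% of the weak NSC peaks that did not recur (7.31% to 8.35%). Within 1 kb the shares were 3.30% and 2.23%. Members were close to other weak peaks instead. Another weak NSC peak, recurring or not, lay within 10 kb of 66.8% of members (65.3% to 68.3%) and of 56.4% of the peaks that did not recur (55.5% to 57.4%). Within 1 kb it was 39.97% of members and 29.96% of the others. Neighbours of equal values were counted separately in these shares, so some of the near peaks are not separate measurements. Another member lay within 10 kb of 34.1% of members, and 30.4% when neighbours of equal values were counted once. Among the 10110 weak NSC peaks that did not recur, 46.7% had another of their own set within 10 kb, more than the members. Such shares depend on how many peaks a set holds.

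Members within 10 kb of each other formed short chains. Of 3153 chains, 2555 were single members, 491 held 2 members, 92 held 3 and 15 held 4 or 5. Of the 100 kb windows with any member, 2175 held 1, and 1 window held 6, on chromosome 7 from 81000001 to 81100000. Its members had NSC tag densities from 5.24 to 8.65, stressed tag densities from 4.86 to 8.63 and NSC z-scores from 33.5 to 66.7. It held no merged region and 3 further weak NSC peaks. A member there from 81084978 to 81085240 and one from 81085318 to 81085573 overlapped the same stressed peak, which had a tag density of 8.63 and a z-score of 105. Another 6 windows held 5 members each and tied for the places after it, so all are given. They were on chromosome 1 from 108500001 to 108600000, chromosome 14 from 97300001 to 97400000, chromosome 15 from 95900001 to 96000000, chromosome 4 from 136300001 to 136400000, chromosome 5 from 900001 to 1000000 and chromosome 8 from 101000001 to 101100000. None of these windows held a merged region. On chromosome 8 all 5 members lay within 3.11 kb and held 3 distinct sets of values, and on chromosome 5 they lay within 3.47 kb and held 4. On chromosome 14 the 5 members also held 3 distinct sets of values, and 4 of them met at the same bases, from 97361081 to 97361082, as entries of 2 bp or ending or starting there. In the window on chromosome 4 the 5 members were separate in value and spread from 136328829 to 136360407, with NSC tag densities from 4.74 to 7.52 and stressed tag densities from 6.69 to 8.63.

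**Figure D4:**
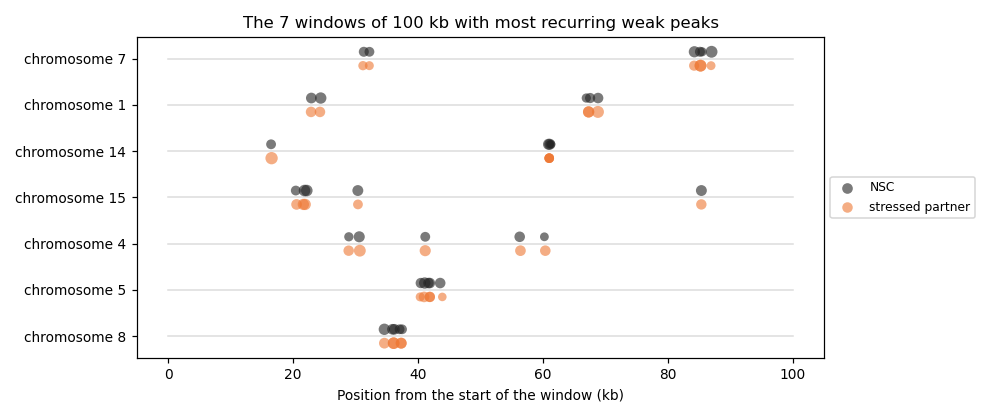
Positions of recurring weak peaks (NSC, dark) and their stressed partners (orange) in the 7 windows of 100 kb that held 5 or more members, in kb from the window's start, with point area proportional to tag density. Members bunch within a few kb on chromosomes 5 and 8 and spread out on chromosome 4.

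The members were spread over all chromosomes, and unlike the merged regions they were densest on chromosome X. Male rats carry a single X chromosome. Chromosome X held 324 members, or 2.10 per Mb, and 0.958 merged regions per Mb, the lowest density of merged regions among the chromosomes. Chromosome 2 followed with 494 members, 1.73 per Mb, and chromosome 5 with 299, 1.69 per Mb. Chromosome 2 held the most members, 12.7% of them, and 7.96% of the merged regions. At the other end were chromosome 10 with 47 members, 0.421 per Mb, and chromosome 12 with 24, 0.444 per Mb, named after their values were seen. These same chromosomes had the highest densities of merged regions, at 4.04 and 4.22 per Mb. Over the 21 chromosomes, Spearman's rho between members and merged regions per Mb was -0.75, and -0.71 without chromosome X. Weak NSC peaks that did not recur followed the members, with a rho of 0.86 and a highest density of 6.45 per Mb on chromosome X. These relations describe chromosomes counted in the same combined libraries.

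The share of weak NSC peaks that recurred varied less than their number. It was 24.5% on chromosome X (95% Wilson interval 22.3% to 26.9%), 32.2% on chromosome 15 (28.5% to 36.1%), 19.3% on chromosome 10 (14.9% to 24.8%) and 30.0% on chromosome 12 (21.1% to 40.8%). Members on chromosome X had a median NSC tag density of 6.37 and a median stressed tag density of 6.67, and their median z-scores were 38.9 (NSC) and 46.9 (stressed). Median NSC tag density ranged from 6.15 on chromosomes 12 and 20 to 6.85 on chromosome 18 across chromosomes. The median log2 ratio lay between -0.092 on chromosome 18 and 0.25 on chromosome 12, the latter from 24 members. Chromosomes 15, 18 and 20 were also named after their values were seen.

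**Figure D5:**
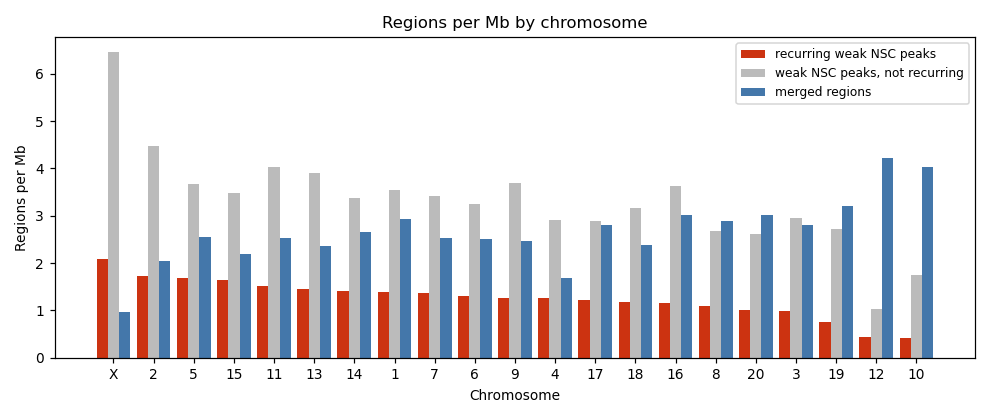
Recurring weak NSC peaks, weak NSC peaks that did not recur and merged regions per Mb on each chromosome, ordered by the density of recurring weak peaks, with each chromosome's length set to the last listed peak's end. Recurring weak peaks run from 2.10 per Mb on chromosome X to 0.421 on chromosome 10, and merged regions rise towards the other end.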

How the data were processed

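GR ChIP-seq and input libraries were grouped by the sample labels. Alignment by the authors used Bowtie2 and rn5, followed by tag extension, removal of duplicates, scaling to input, masking of simple repeats and peak calling by Hotspot with replicates required to share a peak. Maximum tag density is thus a deposited signal (coverage) value, scaled by the authors to input. The deposited z-score is the score of the authors' peak caller. A p-value, also deposited, was not analysed here. In the merged list the authors joined the strongest peaks of each group.

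From these lists, overlaps of at least 1 bp were found with both ends counted as part of a peak, and distances were measured edge to edge. Shares have 95% Wilson intervals, and correlations 95% intervals from Fisher's transformation. Depth is unknown from the lists. No test between groups was made, since replicates are combined. The members and lists were chosen with earlier results of these data known. Regions named are those with the highest tag density, lower of both z-scores, length or log2 ratio in either direction, the peaks just above the limit, the densest windows and the densest chromosomes; others are marked as chosen after their values were seen. Alternatives were stricter overlap, centres within 100 bp, a stricter strength limit, other pairings, scaling, other correlations and other distances. Genes and sequences were not analysed here, because the reference tables hold another build than rn5. Computations used Python 3.11.15, numpy 2.4.6, scipy 1.17.1, pandas 2.3.3 and matplotlib 3.10.9. The overlap and pairing steps were tested on simulated peaks, where shared peaks had the same borders in both lists and 1 possible partner. Partial overlap and the choice between several partners were not tested in this way.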

Additional observations from a re-analysis of the deposited data

How the results depend on the processing

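No paired analysis was possible because replicates of a group share 1 value per peak, and alternatives that leave out a replicate were not run for the same reason. Depth is unknown, and no counting error is given for any ratio.

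With at least 50% of both peaks shared with any weak stressed peak, centres within 100 bp, or both peaks below the median tag density of their list, members went from 3875 to 1782, 1695 and 1388, fewer by construction. In the same order, the share of weak NSC peaks that recurred went from 27.7% to 12.7%, 12.1% and 15.1%, and of weak stressed peaks from 21.9% to 9.996%, 9.49% and 11.9%. Members with another member within 10 kb went from 34.1% to 12.8%, 13.5% and 15.9%. Pairs with stressed values 2-fold higher or more went from 74 to 26, 30 and 33, and lower from 53 to 18, 23 and 28. The median z-score of 37.5 became 39.7, 38.5 and 34.4, and the median length of 351 bp became 373, 328 and 298 bp. For z-score and length the cause was not tested. The correlation of 0.19 became 0.24 with 50% overlap and 0.12 below the medians, where the range is narrower by construction, and the share of members on chromosome 2 went from 12.7% to 10.95% below the medians.

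The log2 ratio, 0.020 at the median, moved to 0.035 below the medians and 0.039 with 1 tag density limit for both groups. After scaling both groups to the medians of the pairs' own values it was -0.0083, which is near 0 by construction. Within 1 kb and 100 kb in place of 10 kb, a merged region was near 3.30% and 26.5% of members, and another member near 20.3% and 53.6%. With neighbours of equal values counted once, 30.4% had another within 10 kb. The last of these and the single limit were chosen after seeing the data. Other values stayed within their intervals or within 1.5 times.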
